A study of Mus musculus with 23 samples.

Results

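Mouse medulloblastomas in which Ptch1 had been disrupted by CRISPR/Cas9 (CRISPR-Ptch1 tumours) were compared with medulloblastomas in which both Ptch1 alleles had been removed by a recombinase (MERP tumours), using bulk expression arrays. All 3 CRISPR-Ptch1 and all 5 MERP tumours with array values in the series were taken by their sample titles, 8 of 23 arrays in all. A pair of the CRISPR-Ptch1 tumours (EP1 and EP2) arose after in utero electroporation of wild-type embryos with a plasmid that encodes Cas9 and a guide RNA against the second exon of Ptch1. The remaining tumour (TF) arose after transfection of such a plasmid into the cerebellum of a newborn Trp53-/- mouse. MERP tumours (MERP1 to MERP5) come from Atoh1-CreER;Ptch1 fl/fl mice, in which the loss of Ptch1 after birth is limited to cells that express Atoh1, also called Math1. Every tumour therefore lost Ptch1 somatically, but the EP tumours are wild type for Trp53, the TF tumour is null for it, and delivery, age at deletion and Trp53 status of the TF tumour cannot be told apart. All samples are labelled as strain CD1, but according to the methods transfection was done in C57BL/6N mice, and neither age, sex nor array batch is given for a tumour. The other 15 arrays, from Ptch1+/- and GTML tumours, granule neuron precursors and adult cerebellum, served to estimate the spread and as reference levels.

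Medulloblastoma of the sonic hedgehog (SHH) subgroup grows from granule neuron precursors, which divide in the external layer of the developing cerebellum while Purkinje cells supply SHH. PTCH1 is the receptor that holds the signal transducer SMO inactive. Binding of SHH, or loss of PTCH1, releases SMO, and the GLI factors then switch on targets such as Gli1, Mycn and the D-type cyclins. Precursors that leave the cycle migrate inwards and become mature granule neurons, so a resected tumour can hold dividing precursor-like cells, differentiating cells and adjacent cerebellum.

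In CRISPR-Ptch1 tumours the loss of Ptch1 is a repaired cut and not the removal of floxed exons. To show what such alleles look like, 1 repaired junction per tumour is given, the first listed without inserted bases from deep sequencing of tumours named EP_1, EP_2 and TF, which the study lists among its tumours for expression arrays without saying which array each one gave. Each line holds the 20 bases to the left of the deletion in lower case, followed by the 20 bases to its right in capitals.
EP_1: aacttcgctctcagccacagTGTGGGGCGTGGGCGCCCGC
EP_2: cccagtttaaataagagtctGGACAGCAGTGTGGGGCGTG
TF: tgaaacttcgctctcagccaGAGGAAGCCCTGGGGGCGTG
The 3 junctions differ, although the study names the same guide for EP and TF tumours. The study found many different insertions and deletions in each sequenced tumour, so a single junction is an example and does not stand for its tumour. Ptch1 RNA itself carries no check of the deletion, because the array probes need not lie in the removed part.

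Values were log2 intensities normalised by RMA, and 1 probe set stood for each of 18194 genes. The median of all probe sets lay between 5.999 and 6.10 in the 8 tumours. A gene was called higher or lower at an adjusted p under 0.05 in limma over all genes, and the groups were said not to overlap where every CRISPR-Ptch1 array lay beyond every MERP array. By this call 1491 genes (8.20% of those tested) were higher and 937 (5.15%) were lower in CRISPR-Ptch1 than in MERP tumours, 13.3% in all. Every CRISPR-Ptch1 array lay above every MERP array for 9.90% of genes and below it for 8.95%. The called genes split 61.4% to higher values, but only 945 of 4115 were higher once the median of the genes had been subtracted from each array, since that median was 0.20 higher on average in the CRISPR-Ptch1 arrays. The median log2 difference over all genes was -0.02, and -0.22 with this centring. Beside 2428 calls over all arrays, there were 1109 without EP1 and 1123 without EP2. The labels do not say how the samples of a group relate, so p-values reflect the spread among the arrays alone, and the number of arrays limits the precision.

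Most SHH target genes did not differ by the test between the 2 kinds of tumour, with exceptions among single targets. Of the 10 SHH target genes measured, 1 was higher and 2 were lower in CRISPR-Ptch1 tumours, beside 8.20% and 5.15% over all genes. Their median difference was 0.00. The 3 calls were 0 without EP1, 1 without EP2 and 4 without TF. Ptch1, itself a target and the gene that was disrupted, had values of 13.09 in EP1, 12.78 in EP2 and 13.07 in TF, and of 13.06, 13.19, 13.24, 12.75 and 12.98 in MERP1 to MERP5. The groups overlapped, with a log2 difference of -0.07 ± 0.20 (SE, adjusted p = 0.87 in limma). Mycn, the MYC family member of granule neuron precursors, differed by 0.17 ± 0.20 (adjusted p = 0.62), Ccnd1, cyclin D1, by 0.11 ± 0.20 (adjusted p = 0.77) and Ccnd2, cyclin D2, by -0.21 ± 0.19 (adjusted p = 0.52). A missed threshold on 3 and 5 arrays does not show that these levels are equal.

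Gli1, the GLI factor whose own transcription reports pathway activity, was lower in CRISPR-Ptch1 tumours. Its values were 9.47, 9.01 and 10.04 in EP1, EP2 and TF, and 9.86, 10.49, 10.94, 10.26 and 10.27 in the MERP tumours. TF lay above MERP1, so the groups overlapped, while both EP values lay below every MERP value. The difference was -0.86 ± 0.23, a 1.81-fold lower level (adjusted p = 0.018), and the call was lost without EP1 or EP2 (adjusted p up to 0.15). Sfrp1, a secreted WNT inhibitor and SHH target, was at 10.96 and 10.32 in the EP tumours and at 12.37 in TF, against 12.19 to 12.72 in MERP tumours. Its fall of 2.37-fold (adjusted p = 0.032) thus rested on the EP pair, since TF lay within the MERP range, and it was lost when EP1, EP2, MERP1, MERP2, MERP3 or MERP4 was left out (adjusted p up to 0.24). Bcl2, which restrains apoptosis, was 1.51-fold higher (adjusted p = 0.012), but the mean of its probe sets gave -0.17 and the most variable one -0.40, both without a call, so the probe sets disagree. The call for Bcl2 was also lost without EP1 (adjusted p = 0.080).

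**Figure D1:**
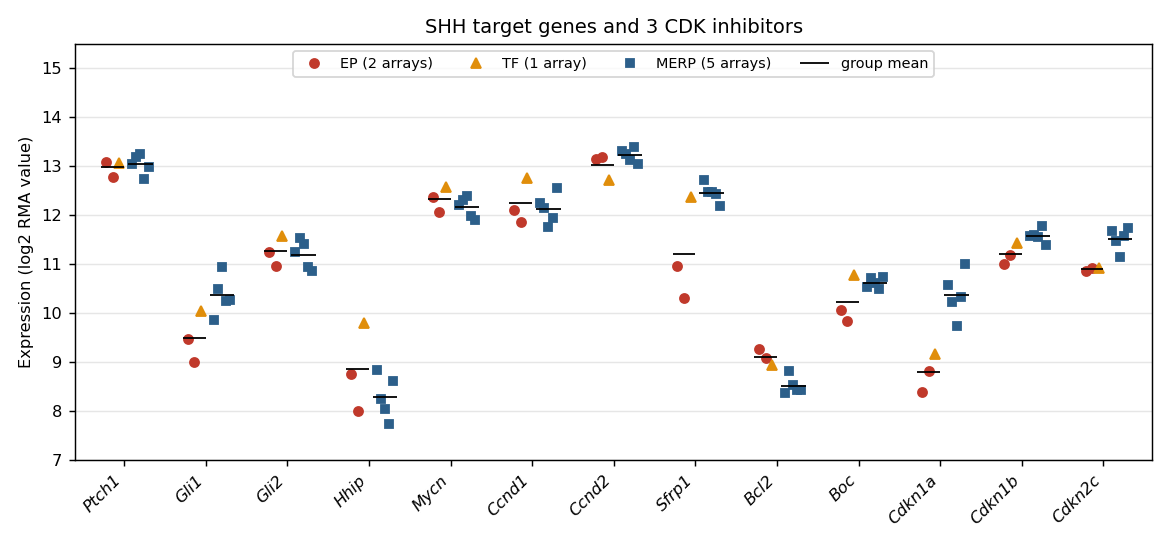
Log2 RMA values (y axis) of the 10 SHH target genes and 3 inhibitors of cyclin-dependent kinases (x axis) in each array: circles, 2 EP tumours; triangles, 1 TF tumour; squares, 5 MERP tumours; horizontal lines, means of the 3 CRISPR-Ptch1 and 5 MERP arrays. Ptch1 overlaps between groups, Sfrp1 is low in the EP pair only, and every Cdkn1a value of CRISPR-Ptch1 tumours (8.40 to 9.17) lies below the MERP range (9.75 to 11.00).

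Upstream and within the pathway few genes were called. None of the 6 receptors and co-receptors and none of the 4 ligand-side genes passed the test in limma, and 0 and 1 of them (Shh) had an unadjusted p under 0.05. Without TF, 2 co-receptors were called, Boc lower (adjusted p = 0.022) and Cdon higher (adjusted p = 0.020), and 2 with arrays centred on the median of their genes. Smo, the signal transducer, differed by -0.37 ± 0.26 (adjusted p = 0.36), and Boc, an SHH co-receptor, by -0.40 ± 0.20 (adjusted p = 0.19). Shh itself was dim, at 5.20, 5.90 and 5.38 in CRISPR-Ptch1 and 4.84 to 5.14 in MERP tumours, with no overlap and an adjusted p of 0.066. Among the 11 GLI factors and intracellular regulators, Spop, an adaptor for ubiquitylation of GLI proteins, was 1.67-fold higher (adjusted p = 0.012) and Prkar1a, a regulatory subunit of protein kinase A, was 1.34-fold higher (adjusted p = 0.027). The Spop call was lost without EP2 (adjusted p = 0.075), the Prkar1a call without EP1, EP2 or MERP3 (adjusted p up to 0.10), and neither held with arrays centred on the median of their genes. In this list 2 genes were higher and 1 lower, beside 8.20% and 5.15% over all genes. The 3 calls were 1 without EP1 and 0 without EP2. The GLI binding motif GACCACCCA, searched on both strands from 250 bases before to 50 bases after the start, was found in none of the 5 SHH target genes with a promoter in the RefSeq table and in 0.289% of all 27025 genes there.

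Immediate early genes, which cells transcribe within minutes of growth factor or depolarising signals, were lower in CRISPR-Ptch1 tumours than in MERP tumours. Of 22 measured, 7 were lower and 0 were higher, against 5.15% lower over all genes. For 9 of the 22 every CRISPR-Ptch1 array lay below every MERP array, against 8.95% of all genes. The median difference of the list was -0.53, beside -0.02 over all genes. The EP and TF tumours gave medians of -0.47 and -0.67 against MERP. The count of lower genes was 6 without EP1, EP2 or TF and 9 without MERP1.

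Promoters of 3 of the lower genes are shown, since the list holds classical targets of the factors SRF and CREB, which bind the CArG box (CC, then 6 bases of A or T, then GG) and the cAMP response element (TGACGTCA). Each line gives the 250 bases before the transcription start from RefSeq (GRCm38.p6), 5′ to 3′ on the strand of the gene, with the motif found in capitals.
Fos promoter, chr12:85473640-85473889, plus strand: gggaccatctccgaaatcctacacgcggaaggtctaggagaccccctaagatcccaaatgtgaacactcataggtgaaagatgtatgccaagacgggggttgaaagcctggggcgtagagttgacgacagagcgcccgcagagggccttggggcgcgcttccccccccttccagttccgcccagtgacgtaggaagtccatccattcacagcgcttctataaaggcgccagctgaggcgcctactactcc
Dusp1 promoter, chr17:26508473-26508722, minus strand: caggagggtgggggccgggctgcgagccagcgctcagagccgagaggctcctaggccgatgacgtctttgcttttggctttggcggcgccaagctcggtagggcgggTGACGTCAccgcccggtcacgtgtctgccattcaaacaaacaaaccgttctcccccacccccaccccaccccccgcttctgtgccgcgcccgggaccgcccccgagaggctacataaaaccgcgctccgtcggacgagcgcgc
Egr2 promoter, chr10:67537680-67537929, plus strand: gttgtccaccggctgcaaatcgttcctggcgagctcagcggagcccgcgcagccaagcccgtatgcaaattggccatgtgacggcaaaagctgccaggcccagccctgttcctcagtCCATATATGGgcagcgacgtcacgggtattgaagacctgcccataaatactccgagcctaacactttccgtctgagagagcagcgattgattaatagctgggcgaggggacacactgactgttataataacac
Capitals mark a cAMP response element that begins 143 bases before the start of Dusp1 and a CArG box that begins 133 bases before the start of Egr2. The Egr2 window shown is 1 of 5 listed for the gene. The Fos stretch holds neither motif in full, and bases more than 250 before the start were not searched. Over windows from 250 bases before to 50 bases after the start, on both strands, the cAMP response element was found in 2 of the 18 list members with a promoter in the table (Dusp1 and Btg2) and in 2.03% of all genes. The CArG box was found in 2 of 18 (Egr2 and Zfp36) and in 1.81% of all genes. Egr1, Egr3, Ier2 and Arc are not in the table.

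Fos, a subunit of the AP-1 transcription factor, was far lower in every CRISPR-Ptch1 tumour. It measured 8.31, 8.41 and 8.25 in EP1, EP2 and TF, and 11.62, 12.98, 11.70, 11.99 and 13.29 in MERP1 to MERP5. All CRISPR-Ptch1 values lay within 0.2 of each other and below the lowest MERP tumour by more than 3. The log2 difference was -3.99 ± 0.41, a 15.9-fold lower level (adjusted p = 8.5e-06). Its mean was 12.43 in granule neuron precursors, 12.91 in Ptch1+/- tumours, 8.75 in adult cerebellum and 8.14 in GTML tumours. For Fos, CRISPR-Ptch1 tumours thus lay near the adult and GTML levels, and MERP tumours near those of precursors and Ptch1+/- tumours. Jun did not share this pattern, with 11.09 in precursors against means of 10.92 in CRISPR-Ptch1 and 12.37 in MERP tumours. Fosb, another AP-1 subunit, was at 3.85, 3.96 and 4.09, near background, against 4.99, 8.60, 5.97, 7.34 and 8.99 in MERP tumours. It was at least 9.26-fold lower (adjusted p = 0.0027), with a wide spread among the MERP tumours.

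The other called members followed in smaller steps. Egr1, a zinc finger factor induced by growth signals, measured 9.47, 9.39 and 10.60 against 12.14, 12.75, 12.18, 12.06 and 12.82, a 5.95-fold lower level (adjusted p = 4.5e-05). Jun, the AP-1 partner of Fos, measured 10.89, 10.84 and 11.01 against 11.75, 12.89, 11.82, 12.40 and 12.999 and was 2.74-fold lower (adjusted p = 0.00046). For both genes the groups were apart, and Egr1 was highest among the CRISPR-Ptch1 tumours in TF. Dusp1, a phosphatase that switches off MAP kinases, was 2.50-fold lower (adjusted p = 0.0036), Ier2 was 2.16-fold lower (adjusted p = 0.00025) and Egr2, a relative of Egr1, was 1.73-fold lower (adjusted p = 0.035). The calls for Fos, Fosb, Jun, Egr1, Ier2 and Dusp1 held when any 1 array was left out, and that for Egr2 was lost without any of 7 arrays, EP1, EP2, TF, MERP1, MERP2, MERP3 or MERP5 (adjusted p up to 0.12).

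**Figure D2:**
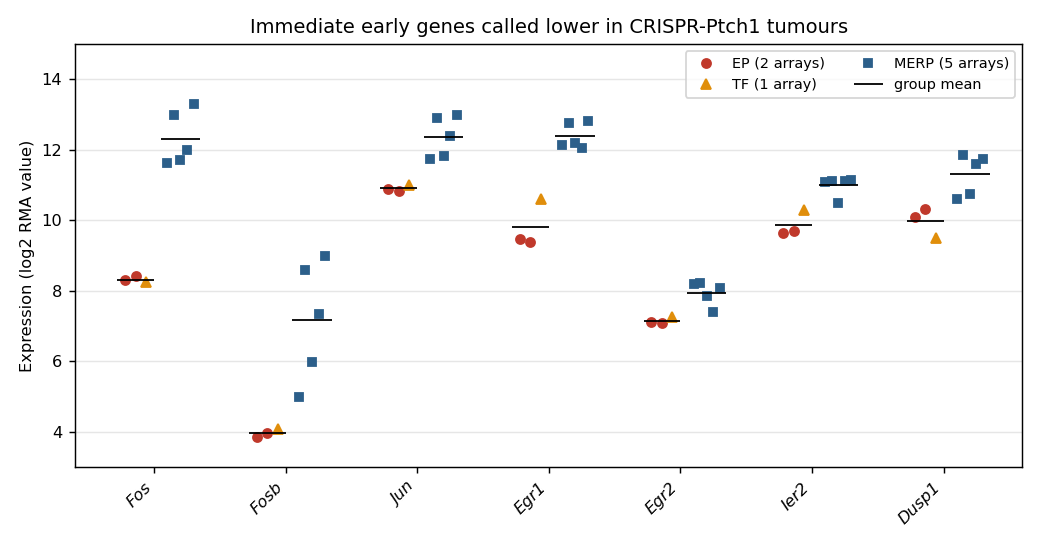
Log2 RMA values (y axis) of the 7 immediate early genes called lower in CRISPR-Ptch1 tumours (x axis): circles, 2 EP tumours; triangles, 1 TF tumour; squares, 5 MERP tumours; horizontal lines, means of the 3 CRISPR-Ptch1 and 5 MERP arrays. No CRISPR-Ptch1 array reaches the lowest MERP array for any of the 7 genes, and Fos lies at 8.25 to 8.41 against 11.62 to 13.29.

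Genes of the cell cycle and its brakes were also lower in part. Of 24 proliferation genes 6 were lower and 0 higher, beside 5.15% lower over all genes. Their median difference was -0.20 beside -0.02 over all genes, and the count was 3 without EP1 and also 3 without EP2. E2f1, which drives entry into S phase, was at 8.85, 8.93 and 8.49 against 9.31, 10.00, 10.32, 10.13 and 9.16, a 2.04-fold lower level (adjusted p = 0.0055). Foxm1, a factor for mitotic genes, was 1.58-fold lower (adjusted p = 0.0013), and Plk1, a mitotic kinase, 1.54-fold lower (adjusted p = 0.0030), both with no overlap. Ccne1, Mcm2 and Mcm3 were the other called members. Mki67, the Ki67 antigen of cycling cells, differed by -0.40 ± 0.26 (adjusted p = 0.33) and Pcna, the DNA polymerase clamp, by 0.12 ± 0.14 (adjusted p = 0.62), with overlapping groups. In bulk tissue, fewer cells of a type and less RNA per cell cannot be told apart.

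Inhibitors of cyclin-dependent kinases fell in 3 of 7 cases and rose in 0, beside 5.15% lower over all genes. Cdkn1a, the p21 inhibitor induced by p53, measured 8.40 in EP1, 8.82 in EP2 and 9.17 in TF, and 10.58, 10.22, 9.75, 10.34 and 11.00 in the MERP tumours. The groups did not overlap, and the Trp53-null TF tumour was the highest of the 3 CRISPR-Ptch1 tumours. The level was 2.995-fold lower (adjusted p = 0.0026), and no single array ended this call. Cdkn2c, the p18 inhibitor of CDK4 and CDK6, was 1.54-fold lower without overlap (adjusted p = 0.025, lost without EP1 or EP2, adjusted p up to 0.090). Cdkn1b, the p27 protein of cells leaving the cycle, was 1.29-fold lower (adjusted p = 0.048), a call lost without any of 6 arrays, EP1, EP2 or MERP1 to MERP4 (adjusted p up to 0.26). The probe sets of Cdkn1b disagreed, with 0.50 for their mean and 0.87 for the most variable one. With EP1 or EP2 left out, 1 of the 7 inhibitors was called.

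Cdkn2a, which encodes the INK4A and ARF inhibitors, varied more within than between groups. It measured 7.26, 8.36 and 10.22 in EP1, EP2 and TF and 5.33, 8.71, 8.10, 10.23 and 9.33 in the MERP tumours (difference 0.27 ± 0.71, adjusted p = 0.84). Of 19 target genes of p53, 1 was higher and 3 were lower, beside 8.20% and 5.15% over all genes. Besides Cdkn1a, the lower ones were Bbc3, which encodes the apoptosis protein PUMA (1.57-fold, adjusted p = 0.0069), and Sesn2, a stress-response gene (1.56-fold, adjusted p = 0.012, lost without EP2 at 0.096). The higher one was Zmat3, an RNA-binding protein, whose call was lost without EP1, EP2, TF, MERP3 or MERP4 (adjusted p up to 0.091), and the 4 calls were 2 without EP2. The median over the list was -0.03, with 0.01 for EP and -0.07 for TF tumours, and no p53 target differed between EP and TF by the test. Trp53 itself was not analysed here.

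Of 15 identity genes of granule neuron precursors 1 was higher and 1 lower, and 5 were called without TF. These shares of 6.67% each were near the 8.20% higher and 5.15% lower over all genes. Atoh1, the factor that defines these precursors, measured 10.98, 10.63 and 12.04 against 11.47, 11.41, 11.68, 11.23 and 10.52 (difference -0.04 ± 0.28, adjusted p = 0.94). TF lay above every other tumour and the EP pair within the MERP range. Pax6, a factor of the granule lineage, was 1.79-fold higher at 11.32, 11.52 and 11.16 against 10.09 to 10.76 (adjusted p = 0.0020). Barhl1, another granule lineage factor, was 1.82-fold lower at 9.49, 9.44 and 9.59 against 10.00 to 10.61 (adjusted p = 0.0078). Neither gene overlapped between groups, and neither call was lost without any 1 array. Atoh1, Barhl1, Pax6 and Gli1, markers of granule-lineage SHH tumours, were all above the array median in each of the 8 tumours. For Pax6 this does not set them apart, since its mean was 10.02 in GTML tumours and 10.49 in adult cerebellum. The means of Atoh1, Barhl1 and Gli1 in those groups were 4.47 to 6.07.

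Markers of mature cerebellar cells were higher in CRISPR-Ptch1 than in MERP tumours, most of all those of Purkinje cells and granule neurons. Of 9 Purkinje markers 7 were higher, of 10 mature granule neuron markers 6, and of 13 neurofilament and maturity genes 8, with medians of 2.46, 1.496 and 1.46 and 0 lower in each, beside 8.20% higher over all genes. Calb1, the calcium buffer calbindin of Purkinje cells, measured 9.67 in EP1, 11.59 in EP2 and 8.66 in TF, against 3.72, 3.77, 4.82, 5.13 and 4.38 in MERP tumours, whose mean was near background. It was at least 48.7-fold higher (adjusted p = 8.8e-05), 27.8-fold without EP2 and 76.9-fold without TF, and its mean in adult cerebellum was 14.29. Gabra6, the GABA receptor subunit of mature granule neurons, measured 9.77, 11.67 and 7.84 against 4.39, 6.43, 6.07, 4.43 and 3.86, a 26.5-fold higher level (adjusted p = 6.2e-05), 13.7-fold without EP2 and 51.5-fold without TF. The order TF, EP1, EP2 from low to high was shared by both genes.

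The same order was found in the mean levels of both lists. The Purkinje list averaged 8.66 in TF, 9.36 in EP1 and 10.56 in EP2, against 6.78 to 7.04 in the MERP tumours and 12.46 in adult cerebellum. The granule neuron list averaged 7.30, 8.48 and 9.92 in TF, EP1 and EP2, against 6.20 to 6.75 in MERP tumours. Over all 1491 higher genes the order TF, EP1, EP2 was found for 43.3%, beside 24.1% of all genes. Without EP2, 5 of the 9 Purkinje markers stayed called, and the calls for Pcp4, a calmodulin regulator, and Ppp1r17, a phosphatase inhibitor, were the ones lost (adjusted p up to 0.079). The neurofilament and maturity count fell from 8 to 3 without EP1, EP2 or MERP4 and to 5 without MERP5, and the granule count to 4 without EP1, EP2 or MERP2. Of the higher genes 59.0% were adult-enriched, with a level in adult cerebellum that exceeded that of Ptch1+/- tumours by 2-fold or more, a property of 16.9% of all genes. How much adjacent cerebellum each dissected tumour held is not given and was not tested.

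Markers of glia and microglia were higher as well, and those of vessels in part, set against 8.20% of all genes called higher. Markers of oligodendrocyte precursors averaged 9.22, 8.95 and 9.05 in EP1, EP2 and TF, against 7.32 to 8.09 in MERP tumours and 8.20 in adult cerebellum. In this list 4 of 8 genes were higher, among them Gpr17, a receptor of maturing precursors (4.62-fold, adjusted p = 0.0018), and Nkx2-2, an oligodendrocyte factor (2.91-fold, adjusted p = 0.00058). Myelin genes were higher in 5 of 11 cases, but 1 was called without EP1, 0 without EP2 and 2 or 3 without MERP2, MERP3, MERP4 or MERP5. Astrocyte and Bergmann glia markers were higher in 7 of 14 cases (4 without EP1, 3 without EP2), with Hopx, a Bergmann glia gene, 3.85-fold higher (adjusted p = 0.00081).

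Markers of microglia and macrophages were higher in 11 of 16 cases and lower in 0, beside 8.20% higher over all genes. The list averaged 9.46, 9.17 and 8.45 in EP1, EP2 and TF, against 7.21 to 7.97 in MERP tumours, 7.45 in granule neuron precursors and 7.19 in adult cerebellum. P2ry12, the purinergic receptor of resting microglia, measured 9.23, 8.51 and 6.78 against 4.33, 5.38, 4.62, 5.51 and 5.38, an 8.77-fold higher level (adjusted p = 0.00051), or 14.2-fold without TF. Aif1, which encodes IBA1, measured 9.66, 9.73 and 8.80 against 6.75 to 7.78, a 4.55-fold higher level (adjusted p = 0.00010). TF was the lowest of the 3 CRISPR-Ptch1 tumours for both and still above every MERP tumour. Means in adult cerebellum were 7.08 for P2ry12 and 5.88 for Aif1. The count was 5 without EP1 and 7 without EP2, and only 1 gene was called for TF alone. None of 9 lymphocyte markers was called in limma, and 1, Ms4a1, was lower at an unadjusted p under 0.05.

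Vessel and fibroblast genes were higher in 7 of 15 and 5 of 11 cases, beside 8.20% higher over all genes. The vessel list averaged 7.32 in EP1, 7.19 in EP2 and 8.18 in TF, against 6.29 to 7.35 in MERP tumours. Its EP means thus lay within the MERP range. The 7 vessel calls were 5 without TF and 4 with only the 8 arrays. Genes enriched in adult cerebellum, 7 of the 15, were left out of a further fit, in which 0 of the other vessel genes were called. Rgs5, a pericyte gene, measured 11.60, 12.11 and 11.57 against 9.92, 10.14, 8.91, 8.49 and 8.96, a 5.57-fold higher level (adjusted p = 0.00013). Dcn, the matrix proteoglycan decorin, measured 9.38, 8.92 and 9.28 against 6.35 to 7.46 and was 4.53-fold higher (adjusted p = 0.00077). Tek, the endothelial receptor TIE2, was 2.99-fold higher (adjusted p = 0.0023). For these 3 genes the groups did not overlap and no single array ended the call. The fibroblast list also held 1 lower gene, Islr, and its 6 calls were 3 without EP2 or TF and 4 without EP1 or MERP2. None of 7 choroid plexus genes was called in limma, and 1, Kl, was higher at an unadjusted p under 0.05. The choroid plexus product Ttr, named for its values, ranged from 6.94 to 14.23 over the 8 tumours, with TF the highest.

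**Figure D3:**
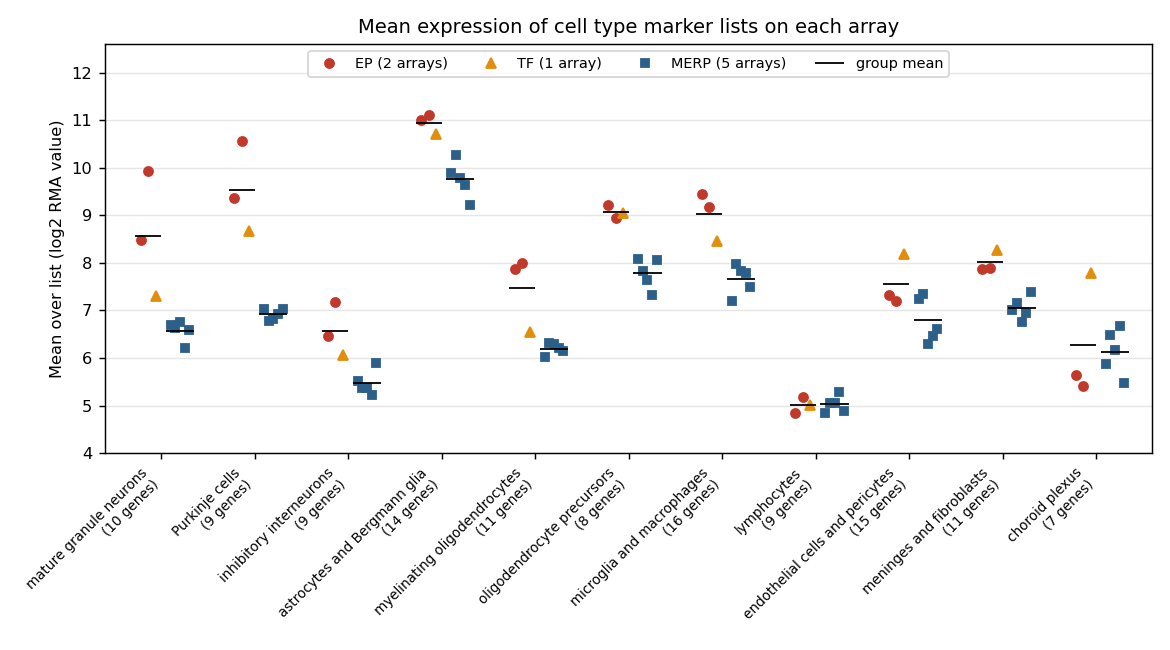
Mean log2 RMA value of each cell type marker list (y axis, lists on the x axis with their number of genes) in each array: circles, 2 EP tumours; triangles, 1 TF tumour; squares, 5 MERP tumours; horizontal lines, means of the 3 CRISPR-Ptch1 and 5 MERP arrays. Purkinje, glial and microglial lists lie above the MERP range in all 3 CRISPR-Ptch1 tumours, granule neuron and myelin lists are lower in TF than in the EP pair, and the lymphocyte list (4.84 to 5.28) overlaps.

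The insulin-like growth factor axis promotes growth of granule neuron precursors together with SHH. Of its genes 5 of 10 were higher and 0 lower, with a median of 0.88, beside 8.20% higher over all genes. Igf1, the ligand, measured 7.46 in EP1, 7.82 in EP2 and 7.59 in TF, and 5.999, 5.97, 6.50, 6.13 and 5.73 in the MERP tumours. The groups did not overlap, and the 2.94-fold higher level (adjusted p = 2.7e-05) held when any 1 array was left out. The binding proteins Igfbp2 (2.91-fold, adjusted p = 0.0026) and Igfbp4 (2.58-fold, adjusted p = 0.0054) were also higher. The receptors Igf1r and Igf2r were called with smaller margins, and without EP1 or EP2 their calls were lost (adjusted p up to 0.10), which left 3 of 10, and that for Igf1r also without TF, MERP4 or MERP5. The most variable probe set of Igf1r gave -0.12, without a call. Microglia and vascular markers moved the same way in these tumours, as given above, and their part in the IGF values was not tested.

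Bone morphogenetic proteins (BMPs) push granule neuron precursors out of the cycle. Of 13 BMP ligands, inhibitors and ID target genes, 3 were higher and 0 lower, beside 8.20% higher over all genes. Id3, an inhibitor of helix-loop-helix factors, measured 9.82, 9.45 and 8.84 against 7.60 to 8.43, a 2.35-fold higher level (adjusted p = 0.0047). Its relative Id4 measured 10.90, 10.76 and 9.03 against 7.91, 7.77, 8.17, 7.30 and 3.58. MERP5 was far below the other MERP tumours, and the difference was 9.74-fold (adjusted p = 0.0096), 5.43-fold without MERP5 and 14.8-fold without TF. It lost its call without EP1 or EP2 (adjusted p up to 0.060). Chrdl1, a secreted BMP inhibitor, was 1.48-fold higher (adjusted p = 0.048), a call lost without any of 7 arrays, EP1, EP2, TF or MERP2 to MERP5 (adjusted p up to 0.18). The list count fell to 1 without EP1 or without EP2 and was 2 without MERP3, MERP4 or MERP5.

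Of 12 WNT genes 2 were higher and 2 lower, beside 8.20% and 5.15% over all genes. Wif1, a secreted WNT inhibitor, measured 4.06, 4.04 and 5.83 against 7.53, 9.61, 6.74, 7.06 and 4.46. The groups overlapped at TF and MERP5, and the 5.42-fold lower level (adjusted p = 0.028) lost its call without EP1, EP2 or MERP2 (adjusted p up to 0.13). It was 3.50-fold without MERP2, 8.53-fold without MERP5 and 8.17-fold without TF. Dkk3, of the Dickkopf family, was 2.39-fold higher (adjusted p = 0.024, up to 0.12 without EP1 or EP2), and its relative Dkk2, near background in MERP tumours, at least 1.67-fold higher, a call lost without TF or any MERP tumour (adjusted p up to 0.31). The 4 calls of the list were 1 without EP1, EP2 or MERP2, and 2 without MERP1, MERP3 or MERP4. None of 13 NOTCH and stem cell genes was called between the groups in limma, 0 had an unadjusted p under 0.05, and 1 was called without EP2.

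The largest differences of all brought further genes beside the lists. Chil3, a chitinase-like protein of macrophages and other myeloid cells, measured 4.19, 4.55 and 3.57, near background, against 7.51, 8.27, 9.78, 8.48 and 6.96 in MERP tumours. It was at least 17.1-fold lower (adjusted p = 2.4e-05), opposite in direction to the microglia markers. Jchain, the joining chain of secreted immunoglobulins, measured 4.02, 4.74 and 4.51 against 4.81, 8.37, 8.61, 9.18 and 9.91, with MERP1 close to the CRISPR-Ptch1 range. Igha, the constant region of IgA, was also lowest in MERP1 among the MERP tumours, at 6.29, 6.39 and 6.81 against 7.10 in MERP1 and 8.94 to 10.82 in the others. Both were called lower, at least 13.5-fold for Jchain (adjusted p = 0.0033; at least 24.2-fold without MERP1) and 5.83-fold for Igha (adjusted p = 0.0027).

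Gdpd3, a phospholipid-cleaving enzyme, was 7.81-fold lower (adjusted p = 0.0013), and the MERP tumours spread from 7.30 to 10.34. Pdlim3, an actin-associated LIM protein, was at 7.25 and 7.16 in EP1 and EP2 and at 10.92 in TF, against 11.16 to 12.16 in MERP tumours. The TF tumour thus lay just under the MERP range, and the fall of 8.66-fold (adjusted p = 0.0032) was 20.5-fold without TF, 5.72-fold without EP1 and 5.56-fold without EP2. Mymx, a muscle fusion peptide, showed the same split, with 5.32 and 4.91 in the EP pair, 8.21 in TF and 8.30 to 8.64 in MERP tumours. Its call was lost without EP1 or EP2 (adjusted p up to 0.070), and none of 6 skeletal muscle genes was called in limma or had an unadjusted p under 0.05. Gm6958, 1500004A13Rik and 9630013D21Rik completed the 12 lowest genes, with differences of -3.00, -2.34 and -2.28.

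Among the 12 highest, Aldh1a1, a retinoic acid-producing dehydrogenase, stood out for the closeness of EP and TF tumours. It measured 9.75, 9.94 and 9.33 against 5.45 to 6.20, a 14.1-fold higher level (adjusted p = 8.8e-05). Gad1, which makes the transmitter GABA, measured 9.04, 10.32 and 8.36 against 3.36 to 4.62, at least 32.4-fold higher (adjusted p = 0.0012). The other inhibitory interneuron marker called was Slc32a1, the vesicular GABA transporter (4.84-fold, adjusted p = 0.0010), 2 of 9 in all, beside 8.20% higher over all genes. Car8, Pcp2, Cbln3, Gabrb2, Kcnd2, Vsnl1 and Fam107a were also among the 12 highest, and Fam107a lost its call without EP2 (adjusted p = 0.065).

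**Figure D4:**
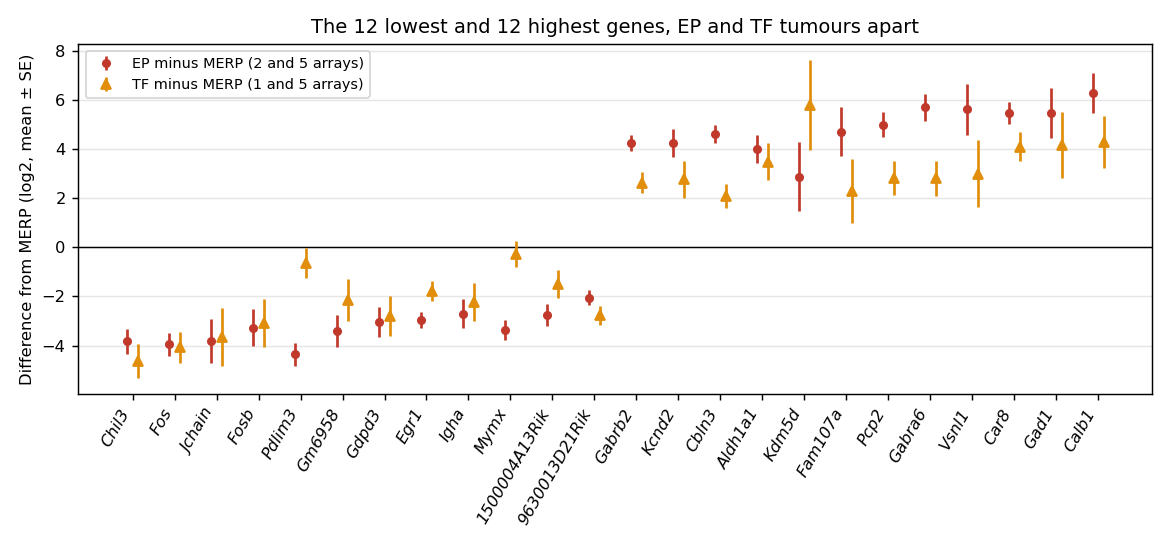
Log2 difference from the mean of 5 MERP tumours (y axis) for the 12 lowest and 12 highest called genes without overlap (x axis), fitted apart for the 2 EP tumours (circles) and the 1 TF tumour (triangles); bars are standard errors of the fit. Fos and Chil3 are far below 0 in both EP and TF tumours, whereas Pdlim3 and Mymx are low in the EP pair and close to the MERP level in TF.

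The Y-linked gene Kdm5d was 1 of the 12 highest, and the sexes of the tumours were not balanced. Kdm5d measured 8.23 in EP1 and 8.75 in TF, but 3.41 in EP2 and 2.71 to 3.18 in MERP tumours. Xist, the RNA of the inactive X chromosome, was at 5.92 in EP1, 5.87 in TF, 13.19 in EP2 and 12.35 to 13.80 in the MERP tumours. The Y-linked Eif2s3y and Uty followed Kdm5d. EP1 and TF therefore had the pattern of male tissue and the other 6 tumours that of female tissue, and the part of sex in other differences was not tested. The Kdm5d call was lost without EP1, TF or any MERP tumour (adjusted p up to 0.21), and without EP2 all 4 sex-linked genes were called.

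The EP and TF tumours differed from each other in 453 genes, of which 302 were higher in EP (1.66%) and 151 higher in TF (0.830%). The TF array has no replicate and was assumed to vary like the other groups. Without EP2 99 genes were called. Of 14 synaptic vesicle genes 6 were higher in EP, and 2 of 14 were called against MERP with the 3 tumours together, 0 without EP1 or EP2, 1 without MERP4 and 11 for the EP pair alone. Neurod1, a factor of differentiating granule neurons, measured 13.71 and 13.91 in the EP pair, 11.91 in TF and 12.40 to 13.06 in MERP tumours (EP minus TF 1.90, adjusted p = 0.00014). TF lay below and the EP pair above the MERP range. Eomes, a marker of unipolar brush cells, was at 7.64 and 7.82 in the EP pair, 5.03 in TF and 6.59 to 7.15 in MERP tumours (EP minus TF 2.70, adjusted p = 0.00052).

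In the opposite direction, the single TF array was higher for some genes of NOTCH signalling and of the interferon response. Dll3, a NOTCH ligand, measured 11.38 in TF, 7.77 and 7.10 in the EP pair and 7.14 to 9.28 in MERP tumours (EP minus TF -3.95, adjusted p = 0.0059). Hes1, a NOTCH effector, measured 10.16 in TF, 8.61 and 7.74 in the EP pair and 7.53 to 9.01 in MERP tumours (EP minus TF -1.99, adjusted p = 0.014). For Vim, the filament vimentin and a stem cell gene of the same list, EP minus TF was -1.20. The median of EP minus TF over the 13 NOTCH and stem cell genes was -0.71.

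Of 13 interferon response genes 4 were higher in TF than in EP, and the list averaged 8.18 in TF, 6.46 and 6.55 in the EP pair and 5.98 to 6.64 in MERP tumours. Usp18, which restrains interferon signalling, measured 8.65 in TF, 4.91 and 4.995 in the EP pair and 5.44 to 6.23 in MERP tumours (EP minus TF -3.70, adjusted p = 0.0082). Oasl2, Bst2 and Rsad2, all antiviral genes, were the other 3, beside 0.830% of all genes higher in TF. Oasl2 was near background in EP and MERP tumours, at 3.60 and 3.88 in the EP pair against 6.50 in TF, which makes its difference of -2.76 a lower limit in size, and Bst2 and Rsad2 differed by -1.89 and -2.03. Against MERP tumours, 2 of 13 were called higher with the CRISPR-Ptch1 tumours together, beside 8.20% of all genes. The list median was -0.04 for EP and 2.25 for TF. The 2 were Gbp2, an interferon-induced GTPase, at 7.19, 6.98 and 7.96 against 4.89 to 6.20 (4.05-fold higher, adjusted p = 0.00086), and Ifitm3, a membrane protein that blocks virus entry, at 10.65, 10.64 and 10.32 against 8.10 to 9.17 (3.66-fold higher, adjusted p = 0.0017). For both genes all CRISPR-Ptch1 tumours lay above all MERP tumours. For TF alone the count was 6. Psmb8, an interferon-induced proteasome subunit, was the only 1 of 13 antigen presentation genes called, beside 8.20% higher over all genes. It was 2.03-fold higher (adjusted p = 0.00030) at 7.79, 8.02 and 7.91 against 6.59 to 7.03. In this list 2 genes were called without TF or without MERP1.

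**Figure D5:**
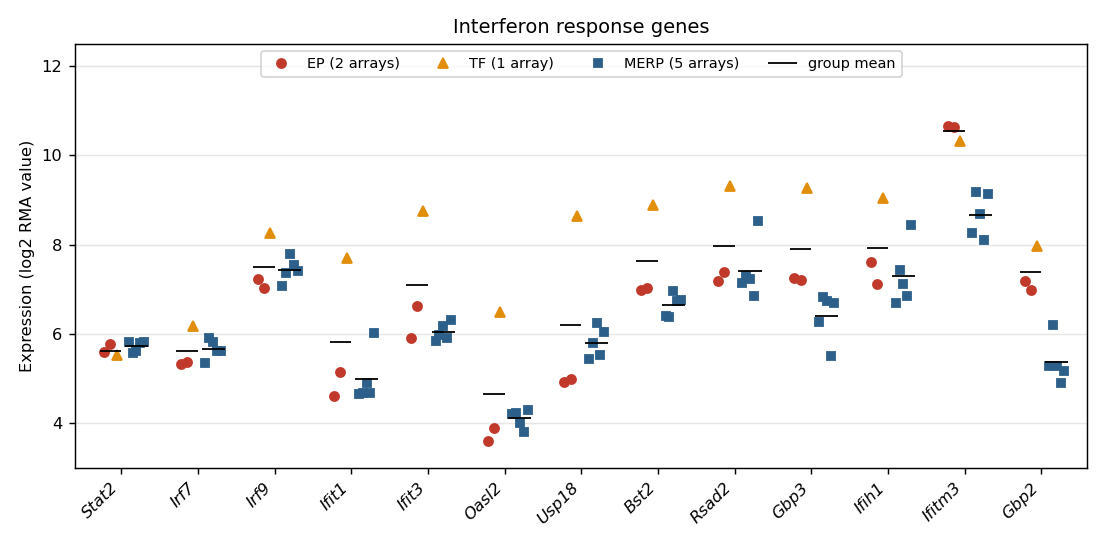
Log2 RMA values (y axis) of the 13 interferon response genes (x axis) in each array: circles, 2 EP tumours; triangles, 1 TF tumour; squares, 5 MERP tumours; horizontal lines, means of the 3 CRISPR-Ptch1 and 5 MERP arrays. Usp18 is at 8.65 in TF against 4.91 to 6.23 in the other 7 tumours, while Ifitm3 and Gbp2 are higher than in MERP tumours in both EP and TF.

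The remaining lists held 1 call or none each. MYC network, ribosome biogenesis, hypoxia and cholesterol genes each had 1 lower gene, which were Mycl, Gnl3, Vegfa and Dhcr7, of 10, 17, 14 and 13 measured. These were 10.0%, 5.88%, 7.14% and 7.69% of the lists, beside 5.15% lower over all genes. Vegfa, the vascular growth factor, was 1.94-fold lower without overlap (adjusted p = 0.028), while several endothelial genes were higher. Mycl, a MYC relative, was 1.52-fold lower (adjusted p = 0.020). Hspd1 was 1 of 11 chaperones higher and Unc5c, a netrin receptor, 1 of 19 axon guidance genes, beside 8.20% higher over all genes. Each of these 6 calls was lost without EP1 and, except for Hspd1, without EP2, with an adjusted p of up to 0.25, and other arrays also ended those for Gnl3 (MERP3), Dhcr7 (MERP1, MERP2 and MERP4), Unc5c (MERP4 and MERP5) and Hspd1 (TF and MERP1 to MERP4). Without TF, 3 axon guidance and 3 ribosome biogenesis genes were called. None of 3 erythroid genes and none of 5 genes of unipolar brush cells was called in limma or had an unadjusted p under 0.05, and Eomes was called without TF.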

How the data were processed

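Total RNA of whole tumours was hybridised to Affymetrix GeneChip arrays for the mouse genome. The authors deposited log2 values computed with Affymetrix Expression Console 1.3.1 by RMA, which corrects background, equalises the distributions of the arrays and summarises each probe set. Which arrays were normalised together is not given in the sources used here, and RMA compresses differences between dim probe sets. There are no detection calls, so a group mean below the lower quartile of all probe sets (4.43 in CRISPR-Ptch1, 4.49 in MERP arrays) was read as near background, and a fold against it as a lower limit.

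Of 45101 probe sets, 34958 name 1 gene, 932 several and 9211 none. For each of 18194 genes the probe set of highest mean over the 23 arrays was used. Groups came from the sample titles. A model of 6 groups over all 23 arrays was fitted with limma 3.58.1 (R 4.3.3, lmFit, contrasts.fit, eBayes), with p-values adjusted by Benjamini-Hochberg over all genes. EP and TF were compared in a model of 7 groups. The fit was tested on simulated data. Replicate numbers were not taken as pairs.

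The members and the 39 gene lists were chosen with earlier results of these data known. Of 467 listed genes, 432 were measured, and the others were not analysed here. The genes named are the 12 highest and 12 lowest called without overlap, the 3 called members of largest change in each list, and all SHH, CDK inhibitor, targeted and sex-linked genes. Jun, Ier2, Dusp1, Egr2, Usp18, Oasl2, Bst2, Rsad2, Neurod1, Zic4, Eomes, Dll3, Hes1, Nkd1, Lgr5, Vim, Ttr, Ms4a1, Kl and the other list members named were picked after their values were seen. Alternatives were array scaling, choice of probe set, dim genes, variance model, arrays in the fit, EP or TF alone, a fold minimum, the replicate block and leaving out each array. Promoters are from RefSeq, GRCm38.p6, and junctions from the sequencing table of the study.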

Additional observations from a re-analysis of the deposited data

Results flagged for a closer look

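The comparison of the EP pair with the TF tumour, in which TF is 1 array, called 21 of the genes named here. EP minus TF was 2.51 for Cbln3, 2.24 for Kcnc1, 1.85 for Syt2, 1.13 for Cplx1 and 1.90 for Neurod1, all neuronal genes. It was 2.70 for Eomes, 2.25 for Ptgds, 1.68 for Lgr5, 1.65 for Cdon and 1.31 for Zic4. TF was higher for Dll3 (-3.95), Pdlim3 (-3.72), Usp18 (-3.70), Mymx (-3.09), Oasl2 (-2.76), Rsad2 (-2.03), Hes1 (-1.99), Bst2 (-1.89), Nkd1 (-1.87), Dkk2 (-1.51) and Vim (-1.20). Some of these genes were named because of this difference. Dkk2 and Oasl2 were below the lower quartile of probe sets in the EP pair, so their differences are lower limits in size.

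Within the 5 MERP tumours 8 of 141 named genes had a tumour set apart from the others, where chance sets apart about 1 in 20. The gap to the nearest tumour, as a share of the whole range, was 0.913 for Ier2, with MERP3 the lowest, and 0.848 for Slc32a1, 0.757 for Evc2 and 0.740 for Rsad2, with MERP5 the highest. It was 0.812 for Id4, 0.757 for Mcm2 and 0.749 for Sox2, with MERP5 the lowest, and 0.731 for Hopx, with MERP4 the lowest.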

How the results depend on the processing

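The fit over all arrays called 2428 genes (1491 higher, 937 lower). The counts were 4115 with arrays centred on genes (945 and 3170), 7338 with array weights (3811 and 3527, with a warning that the weights had not converged), 1036 with only the 8 arrays (763 and 273), 539 for TF alone (367 and 172), 1345 without genes enriched in adult cerebellum (546 higher) and 719 at 2-fold or more (610 and 109). Leaving out 1 array gave 1109 to 2702 calls (746 to 1705 higher, 340 to 1124 lower). The 453 calls between EP and TF became 2207 with array weights, and 99 to 383 without an EP array. For Bcl2 the sign turned to -0.17 with the mean of probe sets and -0.40 with the most variable one, for Cdkn1b to 0.50 and 0.87, and for Igf1r to -0.12 with the most variable one. The cause was not tested. With the replicate block the calls were 2005 (1371 and 634), and samples of the same number did not deviate together (r of -0.047 and 0.046 for the pairs 1 and 2), so the numbers were not read as pairs. Of 95 called genes followed, 20 kept their call under every alternative, among them Fos, Egr1, Igf1, Chil3, Calb1, Gabra6, Aif1, Rgs5, Dcn, Gbp2 and Psmb8. Over 1949 pairs of gene and alternative 1638 kept call and sign, 306 lost the call and 5 changed sign. Of 855 counts of list members 234 moved by over 1.5 times.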
